A study of Homo sapiens with 6 samples.

Results

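Expression of 10 genes of the Polycomb repressive complexes was compared in human embryonic stem cells grown on 1 of 2 laminin coatings. The genes were chosen by name, as core or defining subunits of the complexes: EZH1, EZH2, SUZ12, EED, JARID2 and MTF2 of Polycomb repressive complex 2 (PRC2), and RING1, RNF2, BMI1 and CBX2 of Polycomb repressive complex 1 (PRC1). They are 10 of the 60499 genes in the deposited tables, and the rule names them without a threshold on any value, although earlier results of these data were known when they were chosen. The cells were H1, an established human embryonic stem cell line, kept for 4 days in Nutristem, a medium for undifferentiated cells. The wells carried laminin-521 (the LN-521 group) or a mixture of laminin-521 and laminin-221 (the LN-521+LN-221 group, here called the mixed coating), and cell line, medium and time were the same in both. Each coating had 3 wells, and total RNA of each well was sequenced as its own strand-specific library.

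Polycomb complexes keep developmental genes silent by marking chromatin. PRC2 carries EZH1 or EZH2, the enzymes that methylate histone H3 at lysine 27, held together by SUZ12 and EED, and PRC1 carries RING1 or RNF2, the ligases that attach ubiquitin to histone H2A. In pluripotent cells both complexes gather at CpG islands of genes for lineage transcription factors, among them the HOX clusters, which stay off until the cells differentiate.

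Libraries held between 20606450 and 26836686 estimated read counts, with overlapping ranges on the coatings, and a single sequencing batch was listed for all of them. RNAs of the 7SL family took 30.1% to 37.3% of the TPM, highest in LN-521 well 2, which lowers the TPM of all other genes there. The labels describe triplicate wells of 1 cell line, so p-values measure the spread between wells. Of 8 pluripotency markers, all were expressed, with a summed level of 8242 to 8389 CPM (counts scaled by library size and composition) on LN-521 and 8244 to 8393 CPM on the mixed coating. Within that list NANOG (log2 fold change -0.73 ± 0.09, edgeR adjusted p = 1.65e-04), POU5F1 (-0.36 ± 0.06, adjusted p = 0.00366) and TDGF1 were lower on the mixed coating and LIN28A was higher, while SOX2 was at 0.07 ± 0.05 (adjusted p = 0.577), and at 0.13 without LN-521 well 1 (adjusted p = 0.0987). The POU5F1 call was lost without mixed-coating well 2 (adjusted p = 0.0508), and that of LIN28A without LN-521 well 3 (0.0765) or mixed-coating well 2 (0.112) or 3 (0.0568). The NANOG and POU5F1 counts were not whole in any of the 6 libraries. Of 22 markers of neural, mesodermal and cardiac, endodermal, trophoblast and fibroblast cells, 10 passed the filter on low counts and 1 changed (THY1, a surface protein of fibroblasts that pluripotent cells also carry, log2 fold change -0.38 ± 0.08, edgeR adjusted p = 0.0146), against 2.53% of all genes tested. The THY1 call was lost without LN-521 well 2 (adjusted p = 0.0903) or 3 (0.130) and without mixed-coating well 2 (0.0984) or 3 (0.114). With limma on log2(TPM + 1) none of these 5 calls held, with adjusted p-values of 0.143 for NANOG, 0.318 for POU5F1, 0.0581 for TDGF1, 0.530 for LIN28A and 0.431 for THY1. Their log2 fold changes in that fit were -0.72, -0.32, -0.62, 0.27 and -0.40, in the same order. The summed level of these 22 genes was 1065 to 1191 CPM on LN-521 and 1089 to 1158 CPM on the mixed coating. The lists were uneven: CGA, GCM1, COL3A1, FOXA2 and SOX17, singled out after their values were seen, had 0 to 3 counts in every library, while the fibroblast collagen COL1A2 reached 5854 counts and the trophoblast keratin KRT7 reached 623. The endodermal marker AFP, at 7 to 28 counts, had a log2 fold change of -0.98 ± 0.41 (unadjusted p = 0.0291, edgeR adjusted p = 0.271). The part of other cell types in the members' values was not tested.

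Promoter sequences showed how CpG-rich the regulatory DNA of the Polycomb genes themselves is. RefSeq start sites (GRCh38.p14) were found for 9 of the 10 genes, all but CBX2, and the CpG dinucleotides (the letters CG, which read the same on both strands) in the 250 bases upstream were counted. The 9 promoters held a median of 34 CpG, with a range of 11 to 38, against a median of 11 over 35116 promoters of the same length. The first listed start site of each gene was used, and the 35116 promoters were not limited to genes expressed in these cells. At least 10 CpG were present in 9 of 9, and in 52.2% of all promoters. EZH2 and EED, the enzyme and the methyl-lysine reader of the same complex, lay at the 2 ends of the range and are shown 5′ to 3′ on the strand of the gene, with each CG in capitals.
EZH2: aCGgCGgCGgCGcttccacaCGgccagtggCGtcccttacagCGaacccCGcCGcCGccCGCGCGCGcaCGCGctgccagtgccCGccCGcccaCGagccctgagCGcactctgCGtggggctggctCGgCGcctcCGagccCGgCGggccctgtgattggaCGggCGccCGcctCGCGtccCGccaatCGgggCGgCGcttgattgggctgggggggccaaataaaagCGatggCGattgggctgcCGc
EED: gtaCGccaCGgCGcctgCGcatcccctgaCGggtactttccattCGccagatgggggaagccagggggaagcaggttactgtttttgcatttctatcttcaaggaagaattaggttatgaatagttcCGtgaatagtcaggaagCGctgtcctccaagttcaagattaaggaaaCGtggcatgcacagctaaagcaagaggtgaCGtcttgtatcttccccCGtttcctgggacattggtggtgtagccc
The EZH2 window (chr7:148884292-148884541, minus strand) held 38 CpG, a number that 3.28% of promoters reach. The EED window (chr11:86244503-86244752, plus strand) held 11, which 50.3% of promoters reach. The start sites of the annotations differ here: 209 of the 250 bases of the EED window lie inside the EED gene of GENCODE 29, against 30 of the EZH2 window; among the other 7 windows the number was highest for RNF2, at 194. No chromatin mark or DNA methylation was measured in these libraries, so the sequences describe the loci only.

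The 10 genes spanned a wide range of transcript levels per length. In TPM (each gene's reads per transcript length, brought to a fixed sum), MTF2, which helps bring PRC2 to CpG-rich DNA, was highest at 85.2 ± 10.5 TPM (SD, n = 3) on LN-521, above 95.2% of the genes tested over all wells. JARID2, a subunit that stimulates and guides PRC2, followed at 53.7 ± 5.65 TPM (SD, n = 3). CBX2, the PRC1 subunit that binds methylated H3 and compacts nucleosomes, had 34.9 ± 1.81 TPM (SD, n = 3), and RNF2 had 32.4 ± 4.32 TPM (SD, n = 3). The accessory subunits MTF2 and JARID2 thus stood well above the core of their complex on this scale: EZH1 had 16.6 ± 0.110, SUZ12 14.5 ± 2.19, EZH2 14.1 ± 2.20 and EED 8.27 ± 0.551 TPM (SD, n = 3 each). RING1 at 7.59 ± 0.180 TPM and BMI1 at 3.37 ± 0.733 TPM (SD, n = 3) were the lowest. On LN-521 the wells overlapped between neighbours in 3 places of this order: CBX2 with RNF2, SUZ12 with EZH2, and EED with RING1.

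The order on the mixed coating was the same apart from the neighbours EZH2 and SUZ12, whose wells overlapped on both coatings. MTF2 had 88.4 ± 5.03, JARID2 56.9 ± 3.28, CBX2 34.5 ± 0.111 and RNF2 33.5 ± 1.74 TPM (SD, n = 3 each). EZH1 had 18.9 ± 2.09, EZH2 16.3 ± 1.62, SUZ12 15.9 ± 0.943 and EED 9.57 ± 0.503 TPM (SD, n = 3 each). RING1 had 7.32 ± 0.515 and BMI1 5.58 ± 2.40 TPM (SD, n = 3 each). Neighbours that overlapped were CBX2 with RNF2, EZH1 with EZH2, EZH2 with SUZ12, and RING1 with BMI1.

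**Figure D1:**
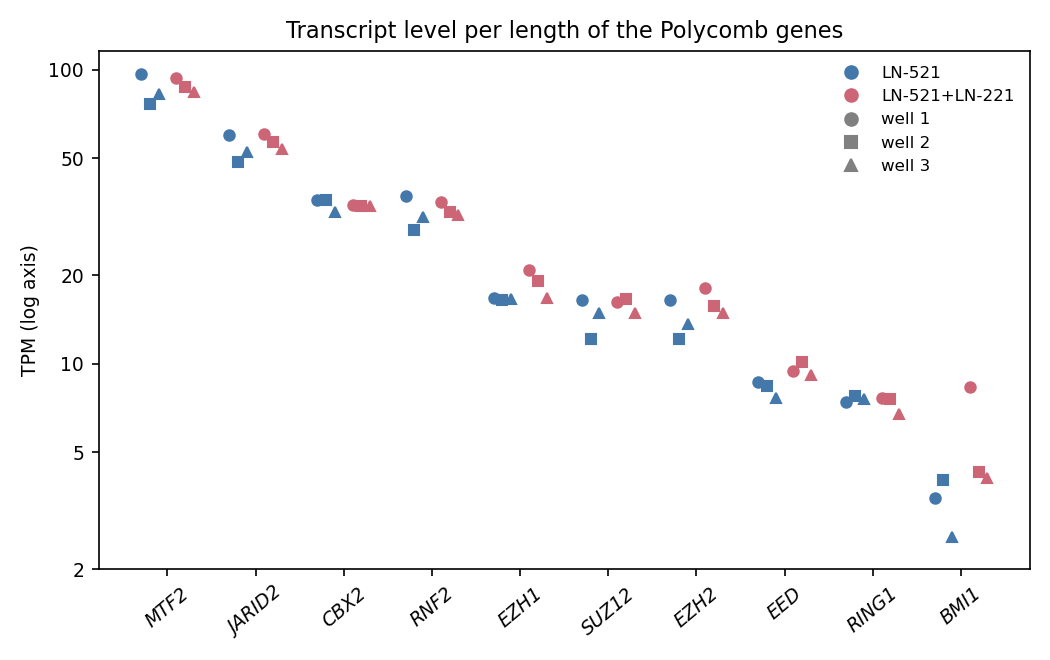
TPM of the 10 Polycomb genes on a log axis, with 1 symbol per well and a colour per coating, genes ordered by their mean over the 6 wells. MTF2 and JARID2 are highest in every well, and BMI1 is lowest apart from 1 mixed-coating well at 8.34 TPM.

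The comparison of the coatings asked whether transcript levels of the silencing machinery differed between laminin-521 alone and its mixture with laminin-221. None of the 10 genes passed the test: 0 of 10 had an adjusted p under 0.05 (edgeR's quasi-likelihood test, Benjamini-Hochberg over the 17608 genes tested), against 2.53% of all genes tested (1.4% higher and 1.14% lower). At an unadjusted p under 0.05 there were 2 of 10, BMI1 and EZH2, against 14.5% of all genes. DESeq2 also called 0 of the 10, against 3% of all genes, and had 1 of them at an unadjusted p under 0.05. The log2 fold changes (mixed coating over LN-521) ran from -0.10 for RING1 to 0.27 for BMI1. They were above 0 for 8 of the 10, against 49.7% of all genes, with a median of 0.07 against -0.00 over all genes. The CPM of the coatings did not overlap for 2 of the 10, EZH2 and JARID2, both higher on the mixed coating, against 10.2% of all genes higher and 9.68% lower without overlap. Summed over the 10 genes, the level was 1071 to 1084 CPM on LN-521 and 1085 to 1112 CPM on the mixed coating. In bulk RNA, fewer cells of a type and less RNA per cell cannot be told apart.

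**Figure D2:**
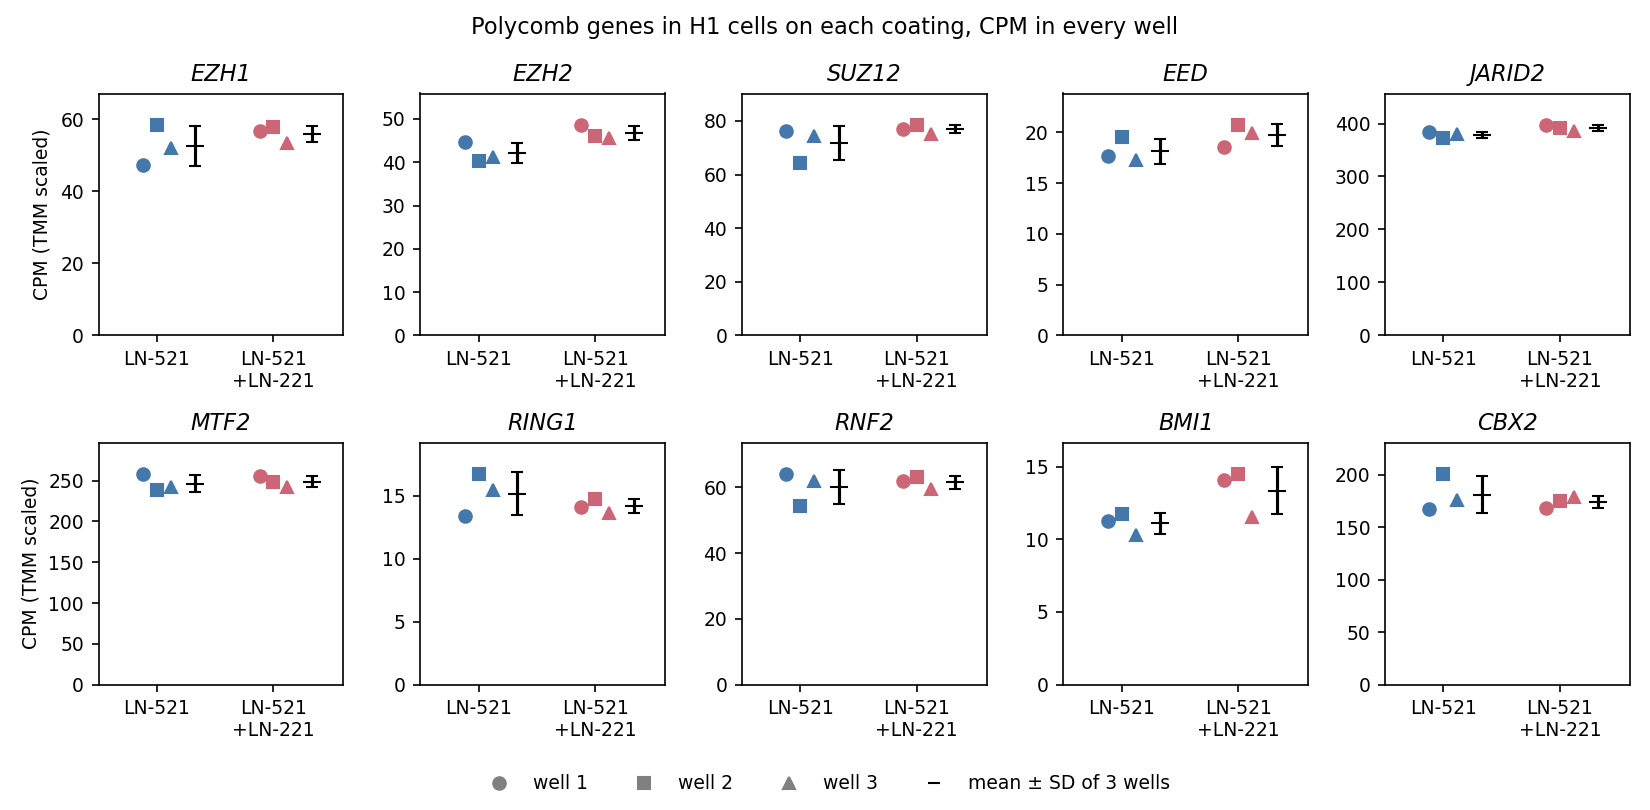
CPM of each Polycomb gene in every well, with the mean and SD of 3 wells per coating as the black bar beside the points; each panel has its own axis from 0. The wells of the coatings overlap in 8 panels, and EZH2 and JARID2 are the panels without overlap.

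Of the PRC2 methyltransferases, EZH2 (GRCh38 with GENCODE 29, ENSG00000106462, chr7:148807383-148884321, minus strand) is the more active enzyme and the form of dividing cells. Its level was 44.8, 40.4 and 41.2 CPM on LN-521 and 48.6, 46 and 45.5 CPM on the mixed coating, so that the lowest mixed-coating well lay just above the highest LN-521 well. The means were 42.1 ± 2.34 CPM (SD, n = 3) on LN-521 and 46.7 ± 1.65 CPM (SD, n = 3) on the mixed coating. The log2 fold change was 0.15 ± 0.07 (SE), with a 95% interval of 0.01 to 0.29, an unadjusted p of 0.0426 and an edgeR adjusted p of 0.320. The lowest adjusted p of EZH2 over 18 alternative fits was 0.0856, in the fit without LN-521 well 1.

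EZH1 (ENSG00000108799, chr17:42700275-42745049, minus strand), the paralogue with weaker methyltransferase activity, was at 47.3, 58.3 and 51.9 CPM on LN-521 and 56.6, 57.7 and 53.3 CPM on the mixed coating. LN-521 wells 1 and 2 lay below and above all wells of the other coating. For EZH1 the log2 fold change was 0.09 ± 0.08 (95% interval -0.07 to 0.25, edgeR adjusted p = 0.652); it was 0.02 without LN-521 well 1 and 0.17 without LN-521 well 2.

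SUZ12 (ENSG00000178691, chr17:31937018-32001045, plus strand) is the scaffold on which PRC2 assembles. Its level was 76.4, 64.4 and 74.2 CPM on LN-521 and 77.1, 78.5 and 75.3 CPM on the mixed coating, and only the highest LN-521 well reached into the range of the other coating. On the log2 scale the fold change was 0.10 ± 0.07 (95% interval -0.04 to 0.25, edgeR adjusted p = 0.531); it was 0.03 without LN-521 well 2 and 0.06 with GC correction. The deposited SUZ12 counts were not whole in any of the 6 libraries, so some of its reads had been divided with other genes.

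EED (ENSG00000074266, chr11:86244544-86278813, plus strand) reads the methyl mark that PRC2 makes and activates the enzyme. It was at 17.6, 19.5 and 17.3 CPM on LN-521 and 18.6, 20.7 and 19.9 CPM on the mixed coating, with overlapping wells. Its log2 fold change was 0.12 ± 0.09 (95% interval -0.07 to 0.31, edgeR adjusted p = 0.582), and 0.18 without LN-521 well 2. All 4 genes of the PRC2 core thus had estimates above 0, and the upper ends of their intervals were at most 0.31 on the log2 scale.

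The 2 accessory PRC2 subunits were measured most precisely. JARID2 (ENSG00000008083, chr6:15246296-15522040, plus strand) was at 384, 372 and 379.7 CPM on LN-521 and 397, 392 and 385 CPM on the mixed coating. The coatings did not overlap, but the gap between the closest wells was small against the level: the means were 379 ± 6.31 CPM (SD, n = 3) on LN-521 and 391 ± 5.94 CPM (SD, n = 3) on the mixed coating. The log2 fold change was 0.05 ± 0.05 (95% interval -0.05 to 0.15, edgeR adjusted p = 0.718). MTF2 (ENSG00000143033, chr1:93079235-93139081, plus strand) was at 258, 238 and 243 CPM on LN-521 and 256, 249 and 242 CPM on the mixed coating, with the highest well on LN-521. Its log2 fold change was 0.02 ± 0.05, with a 95% interval of -0.10 to 0.13 (edgeR adjusted p = 0.931), and the sign turned when LN-521 well 2 or mixed-coating well 1 was left out.

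Among the PRC1 ligases, RNF2 (RING1B; ENSG00000121481, chr1:185045364-185102608, plus strand) is the main ligase of embryonic stem cells. It was at 64.0, 54.3 and 61.9 CPM on LN-521 and 61.8, 63.3 and 59.5 CPM on the mixed coating, and LN-521 well 2 was the lowest of all. Its log2 fold change was 0.03 ± 0.07 (95% interval -0.11 to 0.18, edgeR adjusted p = 0.871); without LN-521 well 2 it was -0.03. RING1 (ENSG00000204227, chr6:33208495-33212722, plus strand), its paralogue, was at 13.4, 16.7 and 15.5 CPM on LN-521 and 14.1, 14.8 and 13.6 CPM on the mixed coating. The lowest and the highest RING1 value were both on LN-521, and the log2 fold change was -0.10 ± 0.10 (95% interval -0.31 to 0.11, edgeR adjusted p = 0.699); it was -0.19 without LN-521 well 1 and -0.03 without LN-521 well 2.

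BMI1 (PCGF4; ENSG00000168283, chr10:22321211-22331484, plus strand) partners the ligase in canonical PRC1 and raises its activity. It had the largest fold change of the 10 genes. Its level was 11.2, 11.8 and 10.3 CPM on LN-521 and 14.1, 14.5 and 11.5 CPM on the mixed coating, and only mixed-coating well 3 fell among the LN-521 wells. The means were 11.1 ± 0.757 CPM (SD, n = 3) on LN-521 and 13.4 ± 1.6 CPM (SD, n = 3) on the mixed coating. The log2 fold change was 0.27 ± 0.11 (95% interval 0.04 to 0.49), with an unadjusted p of 0.0256 and an edgeR adjusted p of 0.257. The interval corresponds to a ratio of 1.03 to 1.41 around 1.2.

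BMI1 lies within a read-through gene on the same strand, COMMD3-BMI1 (ENSG00000269897), and its counts were not whole in any of the 6 libraries. The read-through gene was assigned 14.81 to 63.39 counts per library. With the counts of both summed, the log2 fold change was 0.28 (edgeR adjusted p = 0.168). In TPM the difference was larger, and mixed-coating well 1 stood apart: the wells were at 3.49, 4.03 and 2.58 TPM on LN-521 and 8.34, 4.30 and 4.09 TPM on the mixed coating. With limma on log2(TPM + 1) the log2 fold change was 0.55, and it did not pass the test.

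CBX2 (ENSG00000173894, chr17:79778132-79787983, plus strand) was at 167, 201 and 176 CPM on LN-521 and 168, 175 and 179 CPM on the mixed coating. LN-521 well 2 was the highest and LN-521 well 1 the lowest, so that the wells of the other coating lay between them. Its log2 fold change was -0.06 ± 0.06 (95% interval -0.19 to 0.08, edgeR adjusted p = 0.757), and without LN-521 well 2 it was 0.03. GENCODE 29 lists no gene on the opposite strand over the exons of any of the 10 genes.

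**Figure D3:**
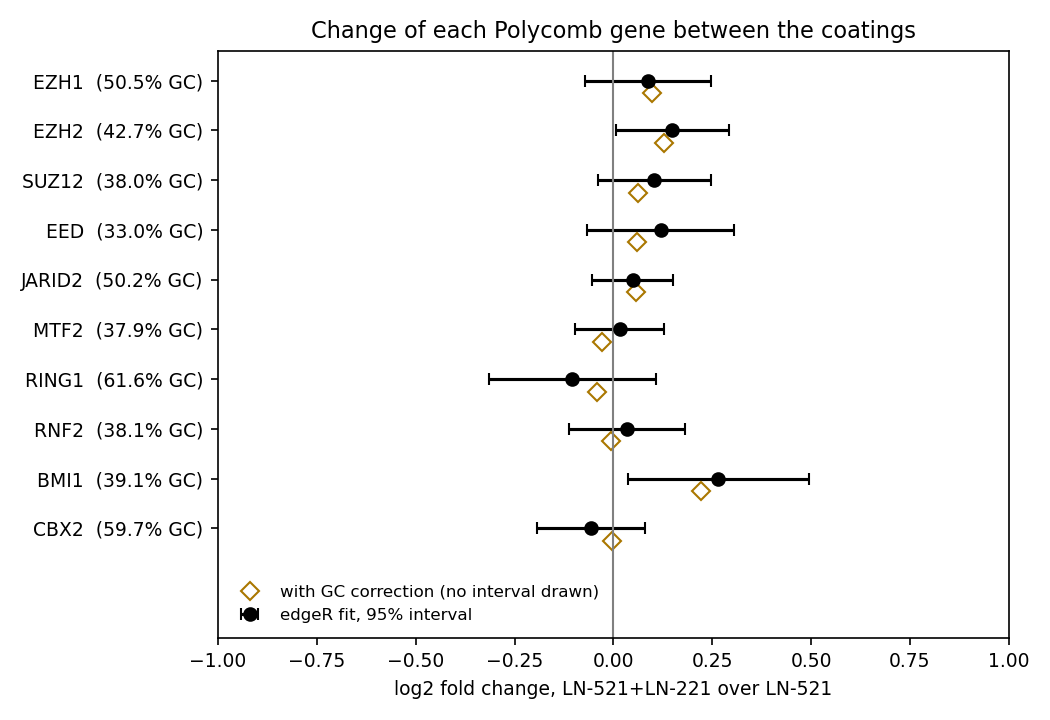
Log2 fold change of each Polycomb gene between the coatings, with the 95% interval of the edgeR fit (black) and the estimate after correction for GC content (open diamonds); the GC content of the longest transcript stands beside each name. All intervals lie between -0.31 and 0.49, and those of EZH2 and BMI1 do not include 0, at adjusted p-values of 0.320 and 0.257.

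Fold changes varied with the GC content of the transcripts over all genes tested. The median log2 fold change fell from 0.05 in tested genes with at most 38% GC to -0.07 in those above 60%. EED had the lowest GC content of the 10 at 33%, and its log2 fold change of 0.12 became 0.06 after a correction for GC content. RING1 and CBX2 had the highest, at 61.6% and 59.7%, and were the only members with estimates below 0; theirs became -0.04 and -0.00. BMI1 at 39.1% went from 0.27 to 0.22, and EZH2 at 42.7% from 0.15 to 0.13. After the correction 6 of the 10 estimates were above 0, against 50.5% of all genes, and 0 of the 10 passed the test, against 5.17% of all genes. MTF2 and RNF2, at 37.9% and 38.1% GC, turned from 0.02 to -0.03 and from 0.03 to -0.01. The part that GC content has in the members' differences was not tested further.

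The share of a subunit in the summed TPM of its family was compared for 5 families, 4 made of paralogues and 1 of JARID2 with AEBP2, which sit together in the same form of PRC2. EZH2 made up 45.7% ± 3.66 (SD, n = 3) on LN-521 and 46.3% ± 1.05 (SD, n = 3) on the mixed coating of the EZH1 and EZH2 transcripts (exact permutation p = 0.8). Transcripts of the enzymes were thus near parity in TPM on both coatings, and the sign of the difference turned without LN-521 well 2. RNF2 made up 80.9% ± 2.37 (SD, n = 3) on LN-521 and 82.1% ± 0.721 (SD, n = 3) on the mixed coating of the ligase transcripts (exact permutation p = 0.6). The RNF2 difference of 1.19 percentage points was 2.43 without LN-521 well 1 and 0.07 without LN-521 well 2. MTF2 made up 74.5% ± 2.22 (SD, n = 3) on LN-521 and 75.6% ± 1.61 (SD, n = 3) on the mixed coating of the transcripts of MTF2, PHF1 and PHF19 (exact permutation p = 0.5). The MTF2 difference of 1.04 percentage points was 2.32 without LN-521 well 1, 0.39 without LN-521 well 2 and 0.16 without mixed-coating well 2.

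BMI1 made up 7.05% ± 1.59 (SD, n = 3) on LN-521 and 10.9% ± 3.36 (SD, n = 3) on the mixed coating of the 6 PCGF transcripts (exact permutation p = 0.2), and PCGF3, a partner of RNF2 in variant PRC1, had the highest TPM of that family. The BMI1 difference of 3.81 percentage points was 1.89 without mixed-coating well 1 and 1.52 with shares taken from CPM. JARID2 made up 57.3% ± 1.98 (SD, n = 3) on LN-521 and 59.8% ± 0.473 (SD, n = 3) on the mixed coating of the summed JARID2 and AEBP2 transcripts. For JARID2 the wells gave 58.7%, 58.2% and 55% on LN-521 and 60.1%, 60% and 59.2% on the mixed coating, without overlap. The exact permutation p was 0.1, the smallest that 3 wells against 3 can give in a two-sided test, and 0.6 after Benjamini-Hochberg adjustment over the 6 shares tested, of which 5 are given. The JARID2 difference of 2.45 percentage points was 1.32 without LN-521 well 3 (exact permutation p = 0.2), and with shares taken from CPM it was 1.23 with overlapping wells (exact permutation p = 0.3). The adjusted p was 0.9 for EZH2, RNF2 and MTF2 and 0.6 for BMI1, so none of these 5 shares could be shown to differ with this number of wells.

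**Figure D4:**
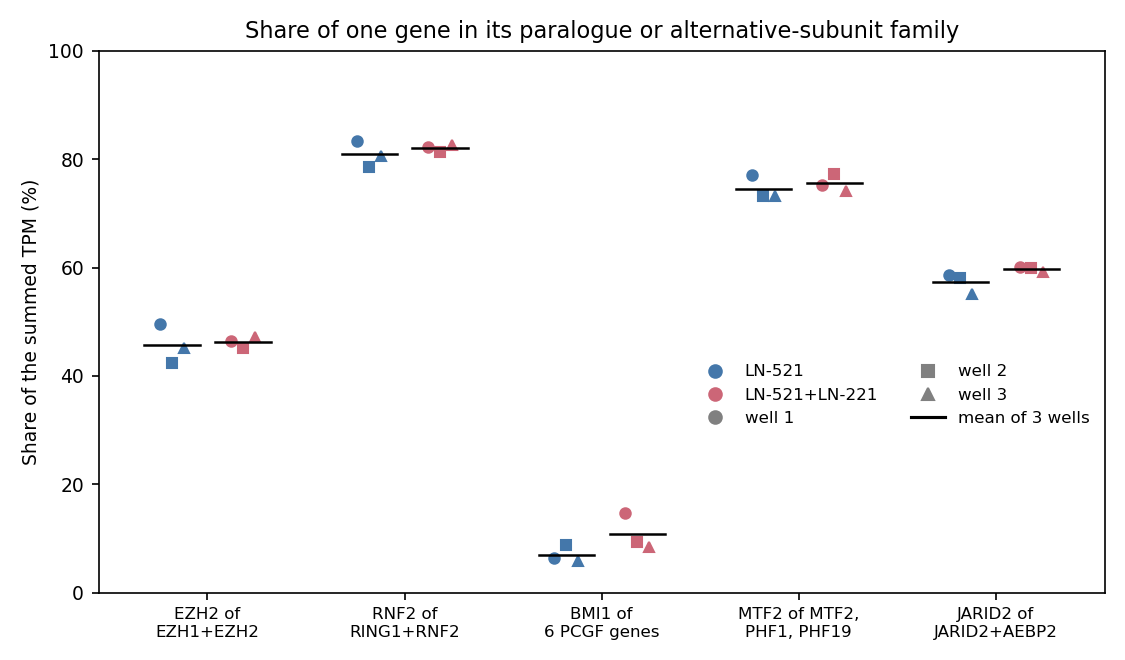
Share of 1 gene in the summed TPM of its family, in percent, with 1 symbol per well, a colour per coating and a black line at the mean of 3 wells. EZH2 lies near 46% on both coatings, and BMI1 is below 15% in every well.

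The remaining genes of the pathway were described with 3 further lists, 39 genes in all, of which 37 passed the filter. Of 8 other PRC2 genes 7 were tested and 0 changed in edgeR, against 2.53% of all genes. At an unadjusted p under 0.05 there were 3, against 14.5% of all genes. DESeq2 called LCOR higher, against 3% of all genes called. LCOR, whose locus encodes a PRC2 cofactor, was at 0.29 ± 0.08 (edgeR adjusted p = 0.0665), and edgeR also called it without the filter, with GC correction and without LN-521 well 1. The median log2 fold change of the 7 was 0.01. The highest was EPOP, a PRC2 subunit that tempers repression (0.29 ± 0.12, edgeR adjusted p = 0.274), and the lowest PHF19, a relative of MTF2 (-0.18 ± 0.09, edgeR adjusted p = 0.343). Of 7 genes whose products act against Polycomb marks, all were tested, with 2 at an unadjusted p under 0.05, against the same 14.5%. EdgeR called 0 of the 7, against 2.53% of all genes, and DESeq2 called 0, against 3%. Among them USP16, which removes ubiquitin from H2A, was highest (0.20 ± 0.08, edgeR adjusted p = 0.252) and BAP1, another H2A deubiquitinase, lowest (-0.20 ± 0.07, edgeR adjusted p = 0.185). Both were called without LN-521 well 1 (USP16 at 0.28, edgeR adjusted p = 0.0190, and BAP1 at -0.26, edgeR adjusted p = 0.0209), and without LN-521 well 2 they were at 0.12 and -0.13.

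Of 24 other PRC1 genes 23 were tested, and 1 changed, against 2.53% of all genes; 7 were at an unadjusted p under 0.05, against 14.5% of all genes, and the coatings did not overlap for 4 lower genes and 1 higher gene, against 9.68% and 10.2% of all genes. PHC1 (polyhomeotic 1; ENSG00000111752, chr12:8913896-8941467, plus strand), which links PRC1 complexes into larger assemblies, fell on the mixed coating. Its level was 784, 783 and 789 CPM on LN-521 and 700.4, 657 and 675 CPM on the mixed coating, without overlap. The means were 786 ± 3.23 CPM (SD, n = 3) on LN-521 and 677 ± 21.6 CPM (SD, n = 3) on the mixed coating. This gave a log2 fold change of -0.21 ± 0.05, a change of -13.8%, with an edgeR adjusted p of 0.0220. The call was lost without LN-521 well 3 (adjusted p = 0.115) and without mixed-coating well 1 (0.0607), well 2 (0.234) or well 3 (0.123), and with limma on log2(TPM + 1), where the adjusted p was 0.801. The log2 fold changes in these fits were -0.21, -0.24, -0.19, -0.21 and -0.17, in that order. PHC1 counts were not whole in any of the 6 libraries, and its 3′ end overlaps M6PR on the opposite strand, whose own log2 fold change was 0.09. The tested PRC1 gene with the highest estimate was its paralogue PHC2 (0.37 ± 0.12, edgeR adjusted p = 0.149), at 5.58 to 8.33 CPM; with GC correction it was at 0.42 and passed the test (edgeR adjusted p = 0.0359). BCOR, a subunit of a variant PRC1, was at -0.23 ± 0.07 (edgeR adjusted p = 0.0945) and was called lower without the filter. The lowest was CBX7, an alternative to CBX2 (-0.25 ± 0.11, edgeR adjusted p = 0.331), which was at -0.15 without LN-521 well 2 and -0.07 with limma on log2(TPM + 1). The median of the 23 was 0.00.

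The classical targets of Polycomb silencing in stem cells were then read. The HOX genes were almost without counts on both coatings: 0 of 39 passed the filter, all had fewer than 10 counts in every library, and 4 (HOXA6, HOXB8, HOXC4 and HOXD10) had none in any. The 3 with the highest mean count were HOXB3 (4 to 9 counts per library), HOXB4 (2 to 6) and HOXA13 (1 to 5). The counts summed over the 39 genes were 32 to 50 on LN-521 and 40 to 52 on the mixed coating. At this depth a count of 0 allows a level of up to 0.113 to 0.144 CPM (3 counts, counting error only). The HOX genes were not tested, and no rise of any of them to 10 counts or more was seen on either coating. CDKN2A and CDKN2B, the cell cycle inhibitors that BMI1 is known to hold silent, had 0 to 8 and 1 to 8 counts per library and were not tested.

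Of 47 lineage transcription factors, 9 passed the filter and 3 were called higher on the mixed coating, IRX3, LMX1B and BARHL1, against 1.4% of all genes tested. IRX3 (ENSG00000177508, chr16:54283304-54286763, minus strand), a homeobox factor of neural and other progenitors, was at 8.06, 8.80 and 6.54 CPM on LN-521 and 13.8, 16.9 and 15.0 CPM on the mixed coating, with a log2 fold change of 0.96 ± 0.12 (edgeR adjusted p = 1.21e-04). LMX1B (ENSG00000136944, chr9:126614443-126701032, plus strand), a LIM homeobox factor of midbrain and limb, was at 0.566, 0.902 and 0.682 CPM on LN-521 and 2.22, 2.02 and 1.94 CPM on the mixed coating (1.5 ± 0.26, edgeR adjusted p = 0.00329). BARHL1 (ENSG00000125492, chr9:132582185-132590266, plus strand), a homeobox factor of neurons, had 2 to 10 counts in the LN-521 libraries and 25 to 29 in the others (2.23 ± 0.41, edgeR adjusted p = 0.00475), so it passed the filter only through the coating where it was high. The same wells also gave a BARHL1 call without the filter (2.22, edgeR adjusted p = 1.63e-05). The edgeR adjusted p-values of IRX3 and LMX1B were smaller there too (1.84e-14 and 5.21e-05), so that fit adds no independent support. The wells did not overlap for any of these 3 genes. With limma on log2(TPM + 1) the IRX3 call was lost (adjusted p = 0.0512), and LMX1B and BARHL1 were below the TPM filter of that fit. Without the TPM filter limma did not call them (LMX1B at 0.23, adjusted p = 0.528, and BARHL1 at 0.43, adjusted p = 0.281). The list was drawn up with earlier results of these data known, and passing the filter can depend on the higher coating, so the count is not independent evidence of a direction.

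LHX5 (ENSG00000089116, chr12:113462034-113472280, minus strand), a LIM homeobox factor of the forebrain, had 24.3, 23.4 and 12.1 CPM on LN-521 and 60.9, 63.5 and 76.5 CPM on the mixed coating. The wells did not overlap, and LN-521 well 3 was the lowest. Its log2 fold change was 1.75 ± 0.30, and the edgeR adjusted p was 0.0865; it was 2.97e-06 without LN-521 well 3 and 7.56e-06 with DESeq2. The edgeR adjusted p was 0.304 with the replicate block and 0.154 without the filter. Without mixed-coating wells 1, 2 and 3 it was 0.230, 0.291 and 0.271. LHX5 overlaps LHX5-AS1 on the opposite strand, and whether the counting used strand is not given in the sources used here. LHX1, a LIM homeobox relative, was at 1.81 to 3.01 CPM with overlapping wells (0.07 ± 0.22, edgeR adjusted p = 0.924). It and 4 other tested factors (TBX3, PAX6, PAX7 and ATOH1) did not pass the test, and the other 38 of the 47 were not tested. In TPM all 3 called factors were below RNF2, MTF2, JARID2 and CBX2, the 4 highest members. How they compare with the lower members is not given here. No measure of H3K27 methylation or H2A ubiquitination is part of these data, so the state of the marks at these genes was not analysed here.

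**Figure D5:**
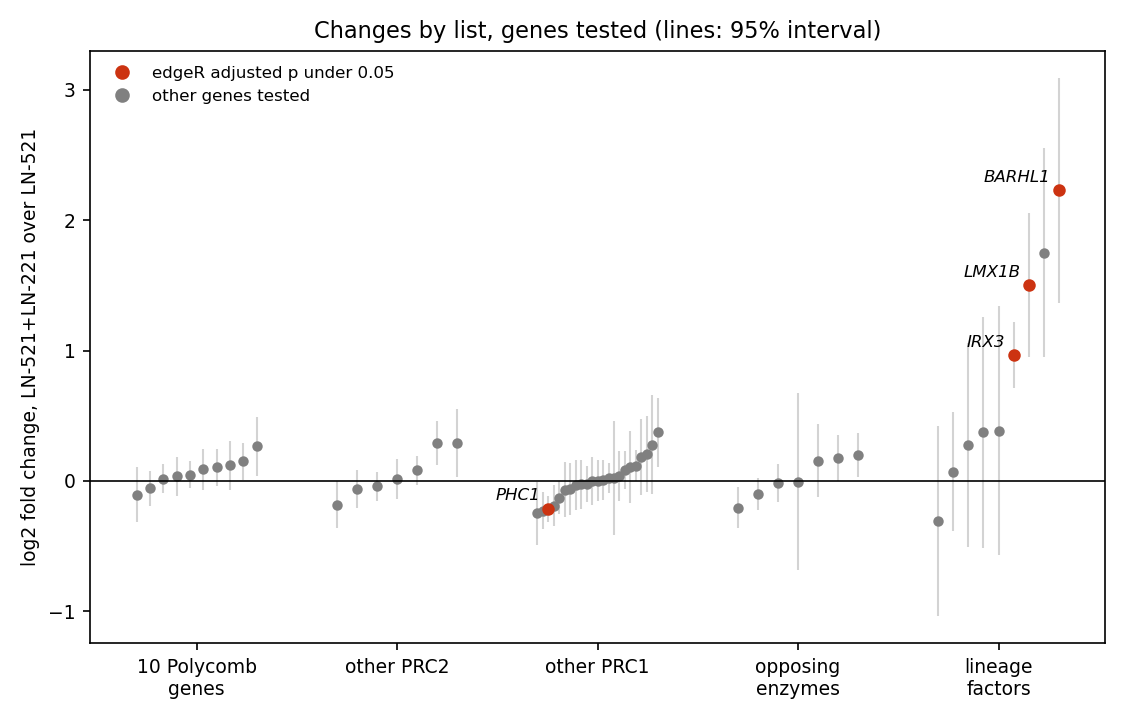
Log2 fold change of every tested gene in 5 lists (points) with its 95% interval (grey lines); red points had an edgeR adjusted p under 0.05. The 10 Polycomb genes lie between -0.10 and 0.27, PHC1 is the called gene of the other Polycomb lists, and IRX3, LMX1B and BARHL1 are the called lineage factors.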

How the data were processed

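The authors deposited a gene table of estimated counts, some of them not whole because reads were divided between genes, and a gene table of TPM; cutadapt, STAR 2.5.2b, RSEM 1.2.31 and hg38 are named per the submitters' processing notes. The annotation and strand setting behind the counts are not given in the sources used here. Symbols came from a gene ID table that held 93.1% of the IDs, and coordinates, GC content and overlaps from GENCODE 29, which held 93.8%. Estimated counts were rounded, filtered with edgeR's filterByExpr (minimum count 10), scaled by TMM and tested with edgeR 4.0.16's quasi-likelihood test (R 4.3.3, robust fit) over all 6 libraries. P-values were adjusted over 17608 genes, with a threshold of 0.05. CPM divides the rounded counts by TMM-scaled library sizes.

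Alternatives were DESeq2 1.42.0, limma 3.58.1 on log2(TPM + 1) and log2(TPM + 0.1), other scalings and filters, a replicate block and leaving out each library; GC correction (lowess span 0.3, alone and with the block) and summing BMI1 with its read-through gene were added after seeing the data. The members and lists were chosen with earlier results of these data known. Named by rule are all members, every called gene of the other lists, the tested gene with the highest and the lowest fold change of each pathway list, the 3 genes of each target list with the highest mean count, POU5F1, SOX2 and NANOG; other genes named were chosen after their values were seen. Of the 6 shares tested, 1 is not reported here. The scripts were tested on simulated data, where false calls were near the nominal rate under trended dispersions and clearly above it under gene-specific ones, which bears on calls near the threshold such as PHC1.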

Additional observations from a re-analysis of the deposited data

How the results depend on the processing

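None of the 10 Polycomb genes was called in any of the 18 alternative fits, where the lowest adjusted p was 0.0856 (EZH2 without LN-521 well 1, edgeR). Against 446 genes called among all tested, the count was 718 without the filter, 911 with GC correction, and 52, 24 and 1 with limma on log2(TPM + 1), on log2(TPM + 0.1) and on log2(TPM + 1) without a filter. Leaving out a library gave 194 to 1179: 1179 without LN-521 well 1, 201 without LN-521 well 3, and 290, 198 and 194 without mixed-coating wells 1, 2 and 3. Against 1 call in the other Polycomb lists (PHC1), there were 3 without the filter (with BCOR and LCOR), 2 with DESeq2 (with LCOR), 3 with GC correction (with LCOR and PHC2), 0 with each limma setting, and 0 to 5 when a library was left out (5 without LN-521 well 1). Against 3 calls among HOX and lineage factors, limma gave 1 on log2(TPM + 1), which was LHX5, and 0 on the other scales; leaving out a library gave 3 to 4. The cause was not tested.

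Signs turned among differences near 0. With GC correction MTF2 was at -0.0277 and RNF2 at -0.0056. When a library was left out, MTF2 ranged from -0.00567 to 0.0495, RNF2 from -0.0308 to 0.0821, CBX2 from -0.112 to 0.0256 and LHX1 from -0.0944 to 0.264 on the log2 scale, and limma on log2(TPM + 1) without a filter gave LHX1 -0.164. The EZH2 share difference then ranged from -1.07 to 2.55 percentage points. The cause was not tested.

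Wells are numbered 1 to 3 on each coating. Deviations of same-numbered wells correlated at 0.047, -0.022 and 0.009, and 3 of the 6 wells correlated best with their own number, so the numbers were not taken as pairs. With the replicate block 646 genes were called, 3 in the other Polycomb lists (PHC1, BCOR and LCOR) and 0 of the 10 members. With the block and GC correction there were 962 and 4, with MTF2 at -0.0274 and RNF2 at -0.00533, and NANOG at -0.75 (edgeR adjusted p = 0.0614) and THY1 at -0.34 (0.0657) were no longer called.

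Depth limits the HOX genes, CDKN2A and CDKN2B, whose counts were under 10 per library, and 3 wells a group limit the shares.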
